A study of Mus musculus with 8 samples.

Results

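Organic ion and drug transporters are the carriers that move bile acids, prostaglandins, hormones, carnitine, organic anions, organic cations and many drugs across cell membranes. They were taken as all gene symbols of the form Slco (organic anion transporting polypeptides), Slc22a (organic anion, cation and carnitine transporters) or Slc47a (multidrug and toxin extrusion antiporters) followed by the member number, which gave 42 of the 24063 genes, 15 Slco, 25 Slc22a and 2 Slc47a, with 51 transcripts. RNA sequencing was performed on tubuloids, Matrigel cultures that form tubules, prepared from kidney fragments of mice that the labels placed at postnatal day 7 to 10, whereas the study's methods gave a younger range. All 8 libraries carried the genotype Pkd2fl/fl Pax8rtTA TetOCre mTmG: both Pkd2 alleles floxed, a doxycycline-dependent transactivator under the Pax8 promoter, a tetracycline-responsive Cre and a red-to-green membrane reporter. The 4 DMSO libraries, numbered 3, 5, 15 and 20, received the vehicle and the 4 DOX libraries, numbered 9, 12, 19 and 21, received doxycycline, which switches on Cre, from day 3 of culture for 3 days, with extraction on day 7. By the study's culture methods, tubuloids were started in medium with the growth factors GDNF, HGF, EGF and FGF, and GDNF was then left out. Cre could arise only in cells with Pax8 promoter activity. The study reports a significant fall in polycystin-2 protein after DOX by western blot. It also describes that some cells remained red and that polycystin-2 was still detectable. No label tied a library to an animal, so all p-values measure the spread between these libraries.

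In the kidney, the proximal tubule takes up organic anions from blood through Slc22a6 and Slc22a8 and organic cations through carriers such as Slc22a2, and Slc47a1 passes cations on into the urine. Slco carriers are found more broadly along the nephron and in other tissues, and Slc22a4, Slc22a5 and Slc22a21 carry ergothioneine or carnitine. Expression of the proximal transporters is known to depend on the transcription factor Hnf4a.

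The libraries held 63922677 to 102716313 summed transcript counts. DMSO 20 and DOX 19 stood apart with counts for 13243 and 13599 genes, against 17054 to 17903 in the other 6. Pkd2 itself averaged 6130 ± 1114 normalised counts in DMSO and 4946 ± 772 in DOX (SD, n = 4 each), and the groups overlapped. These are RNA counts from whole cultures and do not measure polycystin-2 protein. Summed epithelial markers (Cdh1, Epcam, Krt8, Krt18 and Cdh16) ranged from 424 to 1991 TPM (a level scaled for transcript length and library total) and summed stromal markers (Col1a1, Col1a2, Col3a1, Pdgfra and Pdgfrb) from 253 to 2327. DMSO 15 had the lowest epithelial and the highest stromal sum. In RNA from mixed cells, fewer cells of a type and less RNA per cell cannot be told apart. The 8 proximal tubule markers differed among themselves. Lrp2 was at no more than 0.056, Slc34a1 at 0.0066, Slc5a12 at 0.031 and Cubn at 0.174 TPM in any library. Slc5a2, at 5.17 to 23.7 TPM, and Ggt1, at 0 to 15.2 TPM, made up most of the 8-gene proximal sum of 8.32 to 23.7 TPM in DMSO and 11.4 to 20.9 TPM in DOX.

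Of the 42 transporters, 12 had a mean level of at least 1 TPM over the 8 libraries, 32 had a count in at least 1 library and 11 had counts in all 8. No count was found for 10 of them (Slc22a3, Slc22a12, Slc22a14, Slc22a20, Slc22a22, Slco1b2, Slco2b1, Slco6b1, Slco6c1 and Slco6d1), and 9 more had a highest count between 1 and 9. A count of 0 among 668372597 counts allows up to 0.00449 CPM (counts scaled to the library total), taking 3 counts as the limit. This limit covers counting error only. The number detected was 22, 25, 14 and 13 in DMSO 3, 5, 15 and 20 and 20, 21, 13 and 17 in DOX 9, 12, 19 and 21. DMSO 5 thus held the most, whereas DMSO 15 and the pair of libraries with few detected genes held the fewest. Summed transporter levels were 127, 261, 61.9 and 246 TPM in the DMSO libraries and 105, 208, 289 and 113 TPM in the DOX libraries. DOX 19 was highest although few genes were detected in it, DMSO 15 was lowest, and the groups overlapped.

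**Figure D1:**
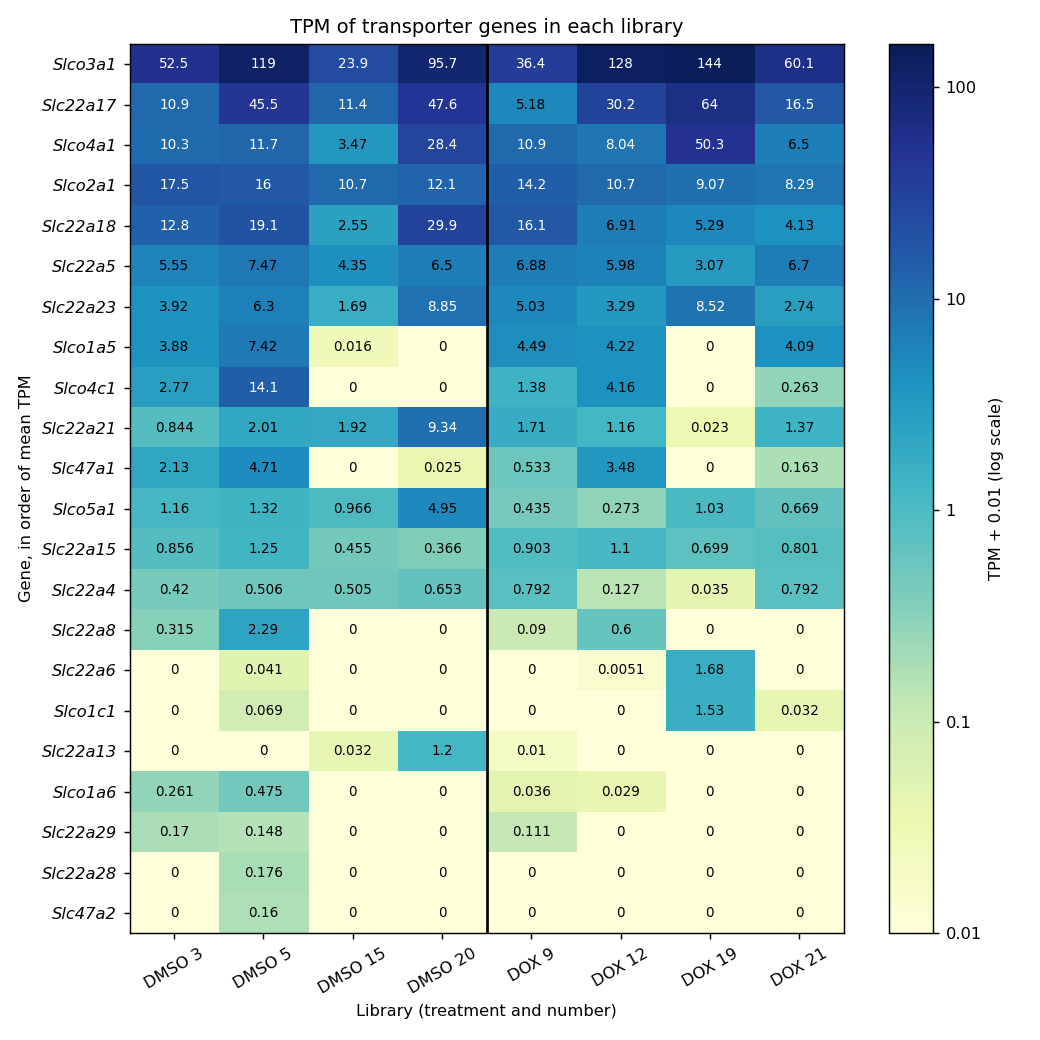
Level in TPM of 22 of the 23 transporters with at least 10 counts in 1 library or more, in each of the 8 libraries (DMSO left of the line, DOX right of it), with the colour on a log scale. Slco3a1 led at 23.9 to 144 TPM, and the lower rows are filled mainly in DMSO 3, DMSO 5, DOX 9 and DOX 12.

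The broadly expressed Slco carriers held the largest share of the transporter RNA. Slco3a1 (chromosome 7, 74275418 to 74554780), an uptake carrier for prostaglandins and thyroxine, stood at 52.5, 119, 23.9 and 95.7 TPM in DMSO 3, 5, 15 and 20 and at 36.4, 128, 144 and 60.1 TPM in DOX 9, 12, 19 and 21. It made up 34.6% to 61.4% of the summed transporter TPM and was the highest of the 42 in each library. This lead depended on how transcripts were handled, because each of its 2 transcripts was given nearly the same reads. The smaller total was 97.7% of the larger, and with 1 transcript per gene its share was 18.8% to 39.5% and its mean fell from 82.4 ± 45.2 to 31.7 ± 17.4 TPM (SD, n = 8). On that scale it did not differ beyond its spread from Slc22a17 at 28.9 ± 21.4 TPM.

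Slco4a1, a thyroid hormone and bile acid carrier, stood at 10.3, 11.7, 3.47 and 28.4 TPM in DMSO and at 10.9, 8.04, 50.3 and 6.50 TPM in DOX. Its highest values were those of DMSO 20 and DOX 19. Slco2a1, the prostaglandin uptake transporter, was the steadiest of these carriers, with 17.5, 16.0, 10.7 and 12.1 TPM in DMSO and 14.2, 10.7, 9.07 and 8.29 TPM in DOX. Slco5a1 (chromosome 1, 12866549 to 12992796), whose substrates are poorly known, stood at 1.16, 1.32, 0.966 and 4.95 TPM in DMSO and at 0.435, 0.273, 1.03 and 0.669 TPM in DOX. In TPM the groups overlapped through DMSO 15 and DOX 19 alone. Slco4c1, the renal carrier of digoxin and thyroid hormone, stood at 2.77, 14.1, 0 and 0 TPM in DMSO and at 1.38, 4.16, 0 and 0.263 TPM in DOX. It was highest in DMSO 5, and the 4 libraries at 0.263 TPM or less came from both treatments.

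The 13 organic anion transporters were sparse, with a summed level of 0 to 2.84 TPM. Slc22a8, the basolateral exchanger of organic anions for dicarboxylates also known as OAT3, had 54 and 286 counts in DMSO 3 and 5, 15 and 99 in DOX 9 and 12, and 0 in the other 4 libraries. Slc22a6 (OAT1), which does the same exchange, had 256 counts in DOX 19, 6 in DMSO 5, 1 in DOX 12 and 0 elsewhere. The genes lie next to each other on chromosome 19 with 6160 bases between them, and the library with the most Slc22a6 counts had none of Slc22a8. The counts of Slc22a8 are sums over 3 transcripts that were given nearly the same reads (the smallest total was 98.7% of the largest), so that no transcript had more than 96 counts in a library. A further organic anion carrier, Slc22a7, had 6 counts in DMSO 5, 4 in DMSO 15 and 0 in the others, and the urate transporter Slc22a12 had none. Among the others of this role, the 6 genes in the cluster at chromosome 19 from 7673075 to 8405111 (Slc22a19 and Slc22a26 to Slc22a30) reached at most 19 counts in any library, and Slc22a13, a urate and nicotinate carrier, had 73 of its 77 counts in DMSO 20.

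The bases before the start sites of these neighbours, whose highest counts lay in different libraries, are shown. Each line gives the 250 bases before an annotated RefSeq start on GRCm38.p6, 5′ to 3′ on the plus strand. The windows are chr19:8617746-8617995 for Slc22a6 and chr19:8592932-8593181 for Slc22a8. The Slc22a8 window lies inside the span of that gene, 8591254 to 8611835, before an annotated start within it.
Slc22a6: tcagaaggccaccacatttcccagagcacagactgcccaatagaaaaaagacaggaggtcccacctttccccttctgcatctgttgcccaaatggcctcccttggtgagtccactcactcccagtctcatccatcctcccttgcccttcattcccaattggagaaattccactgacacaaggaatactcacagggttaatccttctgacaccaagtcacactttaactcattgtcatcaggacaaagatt
Slc22a8: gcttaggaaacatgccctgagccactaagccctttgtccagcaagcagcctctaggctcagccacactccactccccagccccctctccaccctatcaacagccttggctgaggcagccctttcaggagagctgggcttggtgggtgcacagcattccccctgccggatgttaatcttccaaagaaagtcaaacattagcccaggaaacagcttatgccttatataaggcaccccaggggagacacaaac
Neither window held CAAAGTCC, a core form of the Hnf4a site, on either strand. These 8 letters were in 1.20% of 32851 windows of the same length over all genes and in 1 of the 41 windows of the 36 transporters matched to the promoter table, that of Slc22a3. The search describes these letters only, and other forms of the site were not searched.

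For the organic cation carriers, Slc47a1 (MATE1), the apical antiporter that releases cations into the tubule lumen, stood at 2.13, 4.71, 0 and 0.025 TPM in DMSO and at 0.533, 3.48, 0 and 0.163 TPM in DOX. It was highest in DMSO 5 and DOX 12. Its paralog Slc47a2, 539 bases away on chromosome 11, had 14 counts, all in DMSO 5. Of the uptake carriers, Slc22a2 (OCT2) had 5 counts in DMSO 3 and 8 in DOX 21 only, and Slc22a3 had none.

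The carnitine and ergothioneine carriers Slc22a5, Slc22a21 and Slc22a4 lie side by side on chromosome 11 between 53864542 and 54030040. Slc22a5 (OCTN2), the plasma membrane carnitine transporter, stood at 5.55, 7.47, 4.35 and 6.50 TPM in DMSO and at 6.88, 5.98, 3.07 and 6.70 TPM in DOX, and varied least relative to its mean among the 12 leading members. Slc22a21, a carnitine transporter close to it in sequence, stood at 0.844, 2.01, 1.92 and 9.34 TPM in DMSO and at 1.71, 1.16, 0.023 and 1.37 TPM in DOX. DMSO 20 was its highest and DOX 19 its lowest library. How reads shared by such paralogs were counted is not given in the sources used here, so their values are uncertain to that extent. Slc22a4, the ergothioneine carrier, ranged from 0.035 to 0.792 TPM, and Slc22a16 had 1 count in all.

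Among the remaining Slc22a members, Slc22a17, known as a receptor for lipocalin-2, stood at 10.9, 45.5, 11.4 and 47.6 TPM in DMSO and at 5.18, 30.2, 64.0 and 16.5 TPM in DOX. It was the second by mean level, and its lowest and its highest value were both in DOX libraries. Slc22a18, an imprinted gene with an orphan carrier as its product, stood at 12.8, 19.1, 2.55 and 29.9 TPM in DMSO and at 16.1, 6.91, 5.29 and 4.13 TPM in DOX, with both of its transcripts again given nearly the same reads. Slc22a23, a further orphan carrier, stood at 3.92, 6.30, 1.69 and 8.85 TPM in DMSO and at 5.03, 3.29, 8.52 and 2.74 TPM in DOX. DMSO 15 was the lowest DMSO library for each of Slc22a18, Slc22a23, Slco3a1 and Slco4a1.

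Of the Slco1 and Slco2b carriers, which transport bile acids, steroid conjugates and thyroid hormones, only Slco1a5 reached a mean of 1 TPM. It stood at 3.88, 7.42, 0.016 and 0 TPM in DMSO and at 4.49, 4.22, 0 and 4.09 TPM in DOX, so it was either at 3.88 TPM or more or close to 0. The coding gene Iapp overlaps it and had 110, 87, 8 and 0 counts in DMSO and 6, 16, 0 and 8 in DOX, fewer than Slco1a5 in every library with counts for both except DMSO 15, where Slco1a5 had 2. Slco1c1 had 184 of its 196 counts, summed over 2 transcripts, in DOX 19, and Slco1a6 had all of its 95 counts in DMSO 3, DMSO 5, DOX 9 and DOX 12.

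Several sparse transporters were thus counted in the same libraries. Slco4c1, Slc47a1, Slco1a5, Slc22a8 and Slco1a6 were each highest in DMSO 5, and each had counts in DMSO 3, DMSO 5, DOX 9 and DOX 12. In DMSO 15, DMSO 20 and DOX 19, these 5 had at most 2 counts. DOX 21 was mixed, with 422 counts of Slco1a5, 25 of Slco4c1, 17 of Slc47a1 and 0 of Slc22a8 and Slco1a6. The marker lists are given beside them as sums. The loop of Henle sum of 3 markers was 13.5, 10.5, 0.264 and 0 TPM in DMSO and 5.92, 5.68, 0 and 0.904 TPM in DOX, and the distal tubule sum of 3 markers was 25.1, 68.1, 1.10 and 0.011 TPM in DMSO and 13.3, 25.9, 4.58 and 3.17 TPM in DOX. Calb1 made up nearly all of the distal sum, with Slc12a3 at 0 TPM in DMSO 5 and DOX 12 and Pvalb at no more than 0.046 TPM. Both sums were higher in DMSO 3, DMSO 5, DOX 9 and DOX 12 than in the other 4 libraries, and so was the epithelial sum, at 975 to 1991 against 424 to 886 TPM. Umod, a loop of Henle marker, stood at 12.0 and 5.82 TPM in DMSO 3 and 5 and at 5.28 and 4.42 TPM in DOX 9 and 12, against 0 to 0.097 TPM in the other 4. The principal cell sum was 114, 405, 12.7 and 30.7 TPM in DMSO and 47.5, 90.1, 42.0 and 37.9 TPM in DOX, highest in DMSO 5, with Aqp2 at no more than 0.029 TPM and Fxyd4 making up most of it in DMSO 3, DMSO 5, DOX 9, DOX 12 and DOX 21 and Gata3 the largest part in DMSO 15, DMSO 20 and DOX 19. Single markers departed from this order. Gata3 was at 29.2 TPM in DOX 19 and 19.1 TPM in DMSO 20, above DMSO 3 at 17.9 TPM, and the loop marker Cldn16 was higher in DOX 21, at 0.645 TPM, than in DOX 9 and 12. The intercalated cell sum of 4 markers was 0.698, 2.08, 0 and 0 TPM in DMSO and 0.054, 0.587, 0.098 and 0 TPM in DOX, with Foxi1 and Slc26a4 found in DMSO 3, DMSO 5, DOX 9 and DOX 12 only, Atp6v1g3 in DMSO 5 and DOX 12 only and Slc4a1 in DOX 19 only. Outside the nephron, the macrophage and leukocyte sum of 3 measured markers was 15.9, 28.7, 3.96 and 26.02 TPM in DMSO and 10.9, 10.6, 0.0068 and 3.83 TPM in DOX, without the same split of libraries. Within it Ptprc was highest in DMSO 5 at 22.3 TPM, Cd68 in DMSO 20 at 23.3 TPM and Csf1r in DMSO 15 at 0.431 TPM. The stromal sum was 833, 253, 2327 and 754 TPM in DMSO and 695, 807, 484 and 743 TPM in DOX, lowest in DMSO 5, and the endothelial and hepatocyte sums were at most 1.15 and 1.09 TPM. Of the 8 proximal markers, Lrp2, Slc34a1, Slc5a12 and Cubn stayed at or under 0.174 TPM in every library. Ggt1 was in contrast at 15.2, 14.1, 1.58 and 0 TPM in DMSO and at 9.19, 9.05, 3.78 and 1.11 TPM in DOX, high in the same 4 libraries, and Slc27a2 was highest in DMSO 5 at 1.02 TPM. Slc5a2 was highest in DMSO 20 at 23.7 TPM and Aqp1 in DOX 19 at 1.53 TPM. Hnf4a was at 0.368, 0.687, 0 and 0 TPM in DMSO and at 0, 0.330, 0.012 and 0 TPM in DOX, highest in DMSO 5 as well. These genes and the shared pattern were chosen after their values were seen, and the part of cell makeup and of the number of genes detected in it was not tested.

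**Figure D2:**
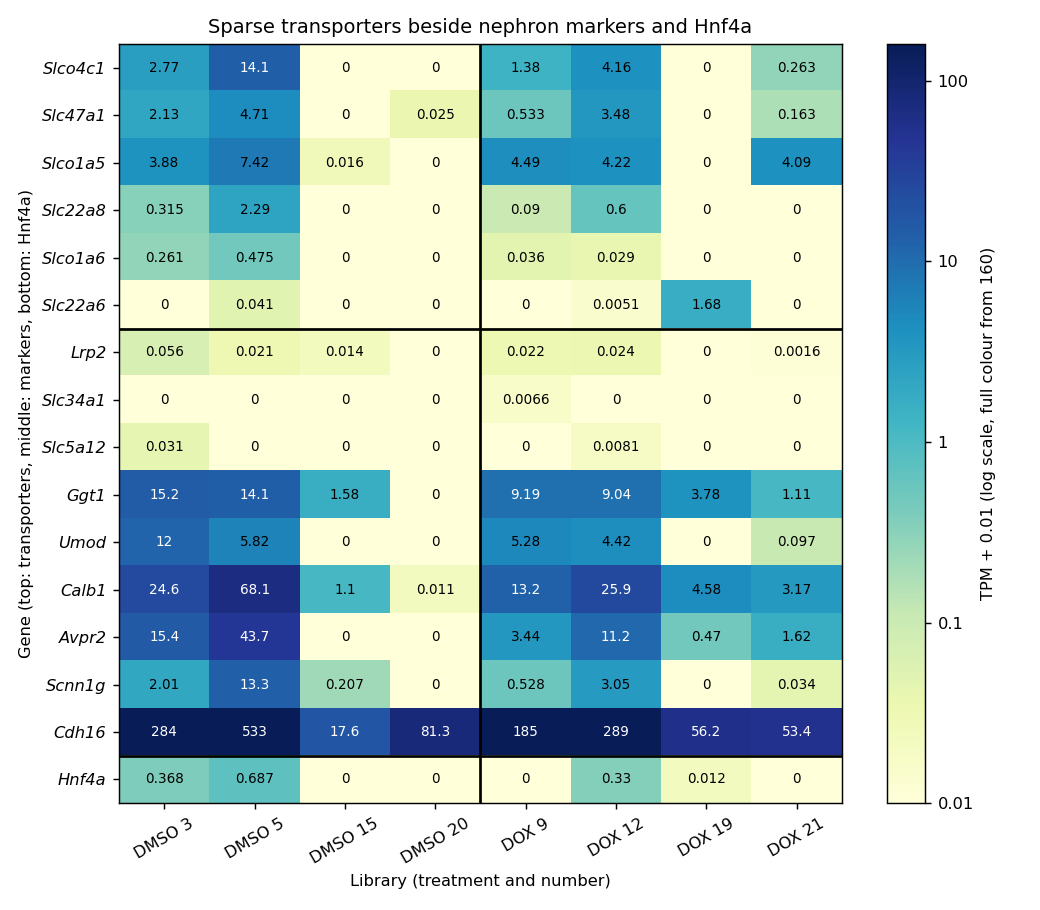
Level in TPM of 6 sparse transporters (top), 9 nephron and epithelial markers (middle) and the transcription factor Hnf4a (bottom) in each library, with DMSO left and DOX right of the vertical line and the colour on a log scale. Slco4c1, Slc47a1 and Slc22a8 reach their highest values in DMSO 5, as do Calb1, Avpr2, Scnn1g and Hnf4a, while Lrp2 and Slc34a1 stay under 0.06 TPM and Slc22a6 stands out in DOX 19 alone.

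DOX and DMSO libraries were then compared to ask which transporters changed after Cre was induced. Calls required a change of 1.5-fold or more with an adjusted p not above 0.05 in DESeq2. None of the 42 transporters was called, against 0.147% of the 17011 genes with an adjusted p (25 genes). An adjusted p was obtained for 18 members, 11 had only an unadjusted p because of low counts, 3 counted members (Slc22a6, Slco1c1 and Slc22a13) had none because 1 library dominated them, and the 10 uncounted members had no test. At an unadjusted p under 0.05, 1 member was lower with DOX and 0 were higher, against 2.47% of 19268 genes lower and 2.20% higher. This member was Slco5a1, and the number depended on single libraries: it was 0 without DMSO 20, 2 without DMSO 15 (with Slc22a18) and 3 without DOX 9 (with Slco2a1 and Slc22a18). With edgeR the 15 members tested also held 0 calls, as did all 15562 genes, of which 476 had an unadjusted p under 0.05. The median log2 fold change was -0.69 over the 18 members and -0.32 over the 12 with at least 1 TPM, of which 4 were higher and 8 lower, beside -0.07 over all genes. The median of the 18 includes members counted in few libraries, whose intervals were wide (95% interval -7.95 to 4.86 for Slc22a29).

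Slco5a1 was the member that differed most clearly. Its normalised counts were 464, 415, 390 and 1644 in DMSO 3, 5, 15 and 20 and 155, 80.3, 377 and 237 in DOX 9, 12, 19 and 21. All DOX values lay below all DMSO values, which was so for 1 of the 21 members averaging 2 counts or more and for 1.08% of all such genes, while 0 members and 1.63% of genes had all DOX values above. The gap between DOX 19 at 377 and DMSO 15 at 390 was narrow. The log2 fold change was -1.78 ± 0.671 (SE, 95% interval -3.10 to -0.46), a fold of 0.291, and the adjusted p was 0.564 in DESeq2 and 0.999 in edgeR, so the difference did not pass the correction over all genes. Without DMSO 20 the log2 fold change was -1.0, and without both libraries of low gene detection it was -1.40 with an adjusted p of 0.229 in DESeq2.

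**Figure D3:**
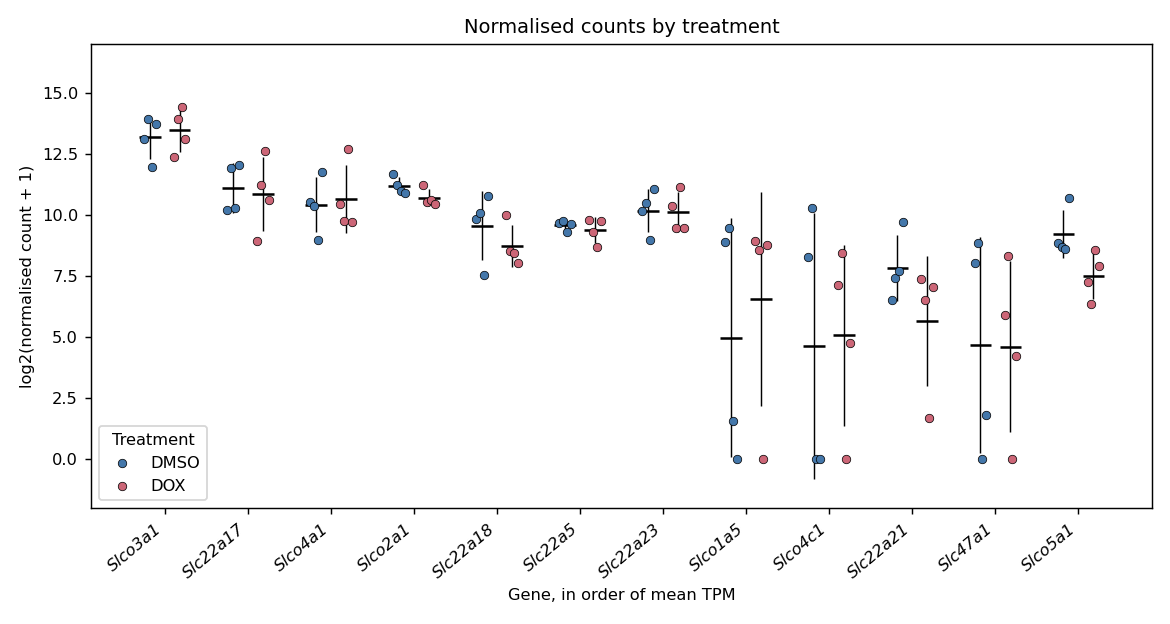
Normalised counts as log2(count + 1) of the 12 transporters with a mean of at least 1 TPM, with 4 DMSO (blue) and 4 DOX (red) libraries per gene, the mean as a horizontal bar and the SD as a vertical line. The treatments overlap in all but Slco5a1, where DOX lies at 80.3 to 377 and DMSO at 390 to 1644 normalised counts, and Slco1a5, Slco4c1 and Slc47a1 spread down to 0 within both treatments.

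For the other leading members the treatments overlapped and the 95% intervals of the log2 fold change held 0, with adjusted p = 0.999 for each in DESeq2. Slco2a1 had 3312, 2385, 2051 and 1908 normalised counts in DMSO and 2387, 1486, 1566 and 1392 in DOX, a log2 fold change of -0.50 ± 0.293 (SE, 95% interval -1.07 to 0.08). This was the narrowest interval of the leading members. Slc22a18 had 916, 1080, 185 and 1779 normalised counts in DMSO and 1022, 364, 345 and 263 in DOX, a log2 fold change of -0.99 ± 0.705. DOX 9 lay among the DMSO libraries and DMSO 15 below all DOX libraries. The value for Slc22a18 was -1.61 without DOX 9, -0.54 without DMSO 20 and -0.36 without both libraries of low gene detection, and that for Slco2a1 was -0.31 without DMSO 3. Slc22a21 had a log2 fold change of -1.75 ± 1.06, from 91.2, 171, 210 and 837 normalised counts in DMSO against 164, 92.4, 2.26 and 131 in DOX, and the value was -0.69 without DMSO 20 and -0.27 without DMSO 20 and DOX 19.

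Slco3a1, Slco4a1 and Slc22a17 were each highest in DOX 19. Their log2 fold changes were 0.30 ± 0.558 for Slco3a1, 0.53 ± 0.808 for Slco4a1 and 0.03 ± 0.762 for Slc22a17 with all libraries, and without DOX 19 they were -0.07, -0.70 and -0.82, so that 1 library set the direction of each. Slc22a17 also turned to -0.21 without DMSO 3 or DMSO 15. Slc22a5, at -0.14 ± 0.313, was bounded between -0.76 and 0.47, and without DOX 19 it was 0.05. Slc22a23 was at -0.07 ± 0.564 and turned to 0.27 without DMSO 20. The intervals were far wider for the members at 0 in some libraries of both treatments. Slco4c1 was at -1.62 (95% interval -6.12 to 2.87), Slc47a1 at -0.88 (-4.85 to 3.08), Slc22a8 at -2.02 (-7.39 to 3.34) and Slco1a5 at 0.14 (-3.70 to 3.98). Without DMSO 5, the first 3 of these turned to 0.29, 0.15 and 0.31, and Slco1a5 turned to -0.27 without DMSO 15 or DMSO 20. For these genes a change of several-fold in either direction was not detectable with 4 libraries per group.

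The same fit was read for 30 genes that work with these carriers or regulate them, namely 10 efflux pumps, 8 exchange and urate partners, 3 PDZ scaffolds and 9 transcription factors and receptors. None was called, against the 0.147% of all genes, and at an unadjusted p under 0.05 1 was higher and 0 were lower, against 2.20% and 2.47%. The number at that level, in either direction, was 0 without DOX 21 and 3 without DMSO 15. The median log2 fold change of the 28 with an adjusted p was -0.18, and 16 of the 30 had a mean of at least 1 TPM. Abcb1a, the P-glycoprotein pump that expels drugs from cells, stood at 10.9, 4.73, 7.35 and 13.4 TPM in DMSO and at 23.0, 16.6, 12.8 and 36.4 TPM in DOX. DOX 19 lay below DMSO 20 in TPM, whereas in normalised counts all DOX libraries (2721 to 7543) lay above all DMSO libraries (873 to 2598), as in 1.63% of genes averaging 2 counts or more. Its log2 fold change was 1.21 ± 0.484 (SE, 95% interval 0.26 to 2.16), and the adjusted p was 0.690 in DESeq2 and 0.999 in edgeR. Without DOX 21 the log2 fold change was 0.84. Its paralog Abcb1b was at -0.39 ± 0.320, and how reads shared by both were counted is not given in the sources used here.

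Among the partners of high level were Nfe2l2, the regulator of detoxification genes also called Nrf2, at 140 ± 31.1 TPM (SD, n = 8), and Abcc4, an apical pump for organic anions, at 102 ± 45.8 TPM. They were followed by the scaffold Slc9a3r2 at 66.3 ± 25.7 and the urate and drug pump Abcg2 at 56.7 ± 12.7 TPM, and the latter pair did not differ from each other beyond their spread. By mean, these levels exceeded those of every transporter other than Slco3a1, which averaged 82.4 TPM, or 31.7 TPM with 1 transcript per gene. The partner levels are sums over transcripts. Single libraries departed from this order. Slc22a17 was at 64.0 TPM in DOX 19, where Abcg2 was at 39.2 TPM, and at 45.5 TPM in DMSO 5, where Slc9a3r2 was at 33.0 TPM. The log2 fold changes were 0.21 ± 0.236 for Nfe2l2, -0.11 ± 0.504 for Abcc4, 0.53 ± 0.423 for Slc9a3r2 and -0.19 ± 0.283 for Abcg2 (SE), and the groups overlapped for each.

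**Figure D4:**
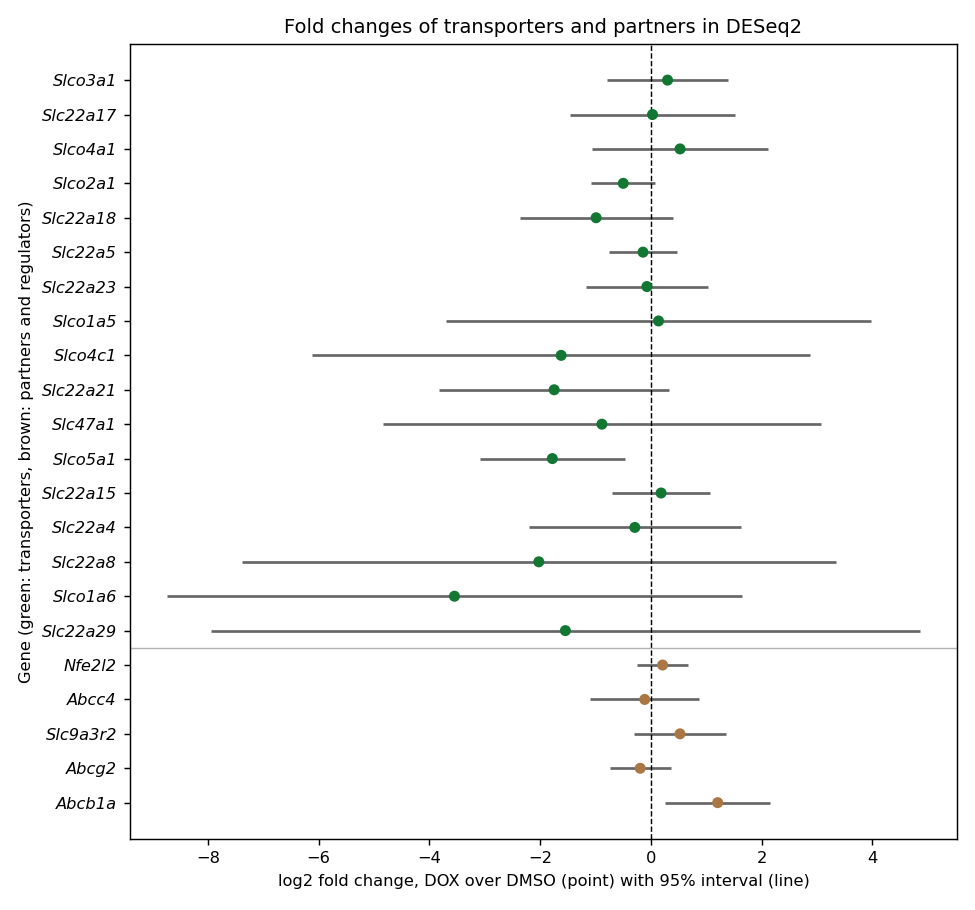
DESeq2 log2 fold change of DOX over DMSO (points) with its 95% interval (lines) for 17 of the 18 transporters with an adjusted p (green, in order of mean TPM) and 5 partners (brown). The intervals of Slco5a1, at -3.10 to -0.46, and of Abcb1a, at 0.26 to 2.16, are the ones that leave out 0, and the members at 0 in some libraries have the widest.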

How the data were processed

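Poly-A selected SMART-Seq v4 libraries of 4 DMSO and 4 DOX tubuloid cultures were analysed. The labels' processing notes name STAR, featureCounts, DESeq2 and the build mm10; versions and counting settings are not given in the sources used here. Each deposited count gives the reads of 1 RefSeq transcript, unscaled. FPKM, which the authors obtained by dividing counts by transcript length and library total, entered no result. The TPM values deposited beside it add up to the same total in every library and served to describe levels only.

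Counts and TPM were summed by gene symbol; isoforms shared reads, so sums overstate genes with several transcripts. Counts were tested with the Wald test of DESeq2 1.42.0 (R 4.3.3) over all 24063 genes without covariates, using median-of-ratios size factors, Benjamini-Hochberg adjustment, independent filtering (alpha 0.1) and the filter on Cook's distance. edgeR 4.0.16 (quasi-likelihood) and limma 3.58.1 (voom) were alternatives, with TMM scaling, 2 count filters, both DESeq2 filters off, 1 transcript per gene and leaving out libraries. The fits were tested on simulated data. Values in each library were given for members with a mean of at least 1 TPM or an unadjusted p under 0.05 and for textbook renal drug transporters, and levels or fold changes for the 5 partners of highest TPM and any at an unadjusted p under 0.05. Some results that this rule covers are not reported here. Other genes named were chosen after their values were seen. Members and lists were chosen with earlier results of these data known. Positions and promoter windows are those of RefSeq on GRCm38.p6, the assembly of mm10, matched by symbol for 36 of 42 members.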

Additional observations from a re-analysis of the deposited data

Results flagged for a closer look

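In 4 of the 44 groups of 4 libraries examined, 1 library stood far from the other 3 by Dixon's test on log2(normalised count + 1). A gene's group was examined only if its highest normalised count was at least 10. The Slc22a6 DOX group passed this rule through DOX 19 alone. Chance flags about 1 in 20 groups, or 2.2 here, but this rate does not allow for the entry rule or for values at 0. The 4 flags involved DOX 19 for Slco1a5, Slc22a21 and Slc22a6 and DMSO 20 for Slco5a1, the libraries with the fewest detected genes. Slco1a5 had 0 normalised counts in DOX 19 and log2 values of 8.57 to 8.93 in the other DOX libraries, a gap of 0.960 of the range. Slc22a21 had 2.26 normalised counts there (log2 value 1.70, against 6.55 to 7.37), a gap of 0.855. Slc22a6 was in contrast highest there, at 289 normalised counts (8.18, against 0 to 0.775), a gap of 0.905. Slco5a1 was highest in DMSO 20, at 1644 normalised counts (10.7, against 8.61 to 8.86), a gap of 0.879.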

How the results depend on the processing

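No transporter and no partner was called under any of the 17 alternatives, and the lowest adjusted p of a named transporter was 0.229 (Slco5a1, DESeq2 without DMSO 20 and DOX 19). Over all genes, the 25 calls became 0 with edgeR, 0 with limma-voom, 16 with at least 10 counts in every library, 48 with the Cook's distance filter off, 51 without DMSO 20 and DOX 19 and 14 (without DMSO 3) to 75 (without DMSO 15) when 1 library was left out; the cause was not tested. Of 230 log2 fold changes of the 14 transporters followed, 208 kept their direction and 22 reversed. With limma-voom, Slc22a17 was at -0.27, Slco4c1 at 0.71, Slc47a1 at 0.10 and the partner Abcc4 at 0.0095. Leaving out both libraries of low gene detection put Slc22a17 at -0.47, Slco4a1 at -0.076, Slc22a5 at 0.078 and Abcc4 at 0.071. Without 1 library at a time, the values ran from -0.82 to 0.38 for Slc22a17, -2.84 to 0.29 for Slco4c1, -2.83 to 0.15 for Slc47a1, -4.32 to 0.31 for Slc22a8, -0.27 to 1.05 for Slco1a5, -0.52 to 0.27 for Slc22a23, -0.067 to 0.57 for Slco3a1, -0.70 to 1.13 for Slco4a1, -0.28 to 0.055 for Slc22a5, -2.12 to -0.69 for Slc22a21, -1.61 to -0.54 for Slc22a18, -0.71 to -0.31 for Slco2a1, -2.20 to -1.0 for Slco5a1, 0.84 to 1.395 for Abcb1a and -0.40 to 0.11 for Abcc4. Slc22a21 was at -0.27 and Slc22a18 at -0.36 without both libraries of low gene detection. All these changes missed the threshold in every fit. With 1 transcript per gene, the mean level of Slco3a1 was 31.7 TPM. Members with too few counts have no value under the stricter filters. No paired analysis was possible because the groups share no library number. With 4 libraries per group and several members at 0 in both treatments, a change of several-fold in those members was not detectable.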
